A study of Mus musculus with 11 samples.

Results

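The circadian clock is a transcription loop that runs in nearly every cell, the airway and alveolar cells of the lung among them. Its activators, CLOCK or its relative NPAS2 paired with BMAL1 (the product of Arntl), bind E-box elements and drive the genes of their own repressors. The PER and CRY proteins and CIART then hold the activators down, and the nuclear receptors REV-ERBα (Nr1d1) and REV-ERBβ (Nr1d2) switch off Arntl, so that across a day the activator Arntl and the repressors Per2, Per3, Ciart, Nr1d1 and Nr1d2 peak at opposite times in most tissues. The 10 genes described here are this core: the activators Arntl, Npas2 and Clock and the repressors Cry1, Cry2, Per2, Per3, Ciart, Nr1d1 and Nr1d2. They are named by symbol, and 9 of the 10 were found among the 19938 genes of the expression table, each through the table row of highest mean where a gene had several rows, and Npas2 was not analysed here.

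The series profiled whole lung RNA of 129S1 mice on 11 Affymetrix arrays, in log2 units, after gavage of aspirin, triptolide or both. Aspirin is a cyclooxygenase inhibitor and triptolide a diterpenoid of the thunder god vine that blocks transcription. The groups were aspirin at 4 mg/kg with triptolide at 1 mg/kg (the combination, 3 arrays), triptolide alone at 1 mg/kg (3 arrays), aspirin alone at 4 mg/kg (3 arrays) and the controls (2 arrays). Gavage ran 5 days a week for 2 months. The controls are called untreated in the sample titles and PBS-treated in the treatment protocol. The labels give neither sex, age nor the hour at which lungs were taken, and they do not say whether replicates were separate mice, so p-values measure only the spread between these samples.

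Arrays differed in ways that the treatments do not name. The array of combination replicate 1 stood apart from the rest on the first principal component, at 60.2 against −15.0 to 6.8 for the other 10 arrays, and it carried the highest erythroid and cell cycle marker levels. That array also had the lowest levels of the series for alveolar type 1 (−0.82), alveolar type 2 (−0.72), endothelial (−0.69) and fibroblast (−0.59) markers. These are means over a marker list after each gene was centred on its mean over the 11 arrays. Sftpc, surfactant protein C, was high on all arrays (13.62 to 14.27). Y-linked genes were low on the 3 combination arrays, triptolide replicate 1 and both controls, and high on triptolide replicates 2 and 3 and all 3 aspirin arrays. Eif2s3y, for example, measured 4.58 to 6.76 in the combination, 6.39, 9.82 and 9.56 in triptolide, 9.26 to 9.48 in aspirin and 5.05 to 5.29 in control lungs. Combination and control lungs were therefore alike in Y-linked level, while aspirin lungs differed from both. The Y-linked level and treatment cannot be told apart in aspirin against control, nor in combination against aspirin. Triptolide lungs held both levels, so comparisons with triptolide carry part of that difference. In whole lung, fewer cells of a type and less RNA per cell cannot be told apart either.

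The promoters of 4 members are printed as examples of the clock elements searched for. Sequences are RefSeq promoters on GRCm38.p6, from 250 bases before to 50 after the gene start, 5′ to 3′ on the gene's own strand, and 9 of the 10 members had at least 1 such window, Per2 being the exception. Capitals mark the element found.

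Ciart, chr3:95882179-95882478, minus strand, E-boxes: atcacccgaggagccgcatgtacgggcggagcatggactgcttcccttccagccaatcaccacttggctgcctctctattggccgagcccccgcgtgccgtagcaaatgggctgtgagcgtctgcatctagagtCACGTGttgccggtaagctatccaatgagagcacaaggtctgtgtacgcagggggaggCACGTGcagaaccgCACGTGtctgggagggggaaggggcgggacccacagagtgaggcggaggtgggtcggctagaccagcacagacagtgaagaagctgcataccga
Per3, chr4:151044616-151044915, minus strand, D-boxes: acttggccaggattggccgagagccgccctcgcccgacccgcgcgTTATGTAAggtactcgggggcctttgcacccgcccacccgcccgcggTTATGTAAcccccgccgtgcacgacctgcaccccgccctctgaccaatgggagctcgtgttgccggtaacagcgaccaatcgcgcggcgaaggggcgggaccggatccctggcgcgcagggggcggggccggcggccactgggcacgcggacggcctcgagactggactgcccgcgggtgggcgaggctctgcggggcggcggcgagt
Cry1, chr10:85185005-85185304, minus strand, an E-prime box and an E-box: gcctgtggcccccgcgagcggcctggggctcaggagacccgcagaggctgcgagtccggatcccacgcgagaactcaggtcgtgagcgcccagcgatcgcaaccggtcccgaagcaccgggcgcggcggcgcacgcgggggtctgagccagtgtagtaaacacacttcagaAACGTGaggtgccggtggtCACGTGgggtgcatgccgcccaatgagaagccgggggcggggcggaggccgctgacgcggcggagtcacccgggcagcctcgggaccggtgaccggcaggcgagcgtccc
Arntl, chr7:113207261-113207560, plus strand, second of 2 start sites, ROR/REV-ERB core site: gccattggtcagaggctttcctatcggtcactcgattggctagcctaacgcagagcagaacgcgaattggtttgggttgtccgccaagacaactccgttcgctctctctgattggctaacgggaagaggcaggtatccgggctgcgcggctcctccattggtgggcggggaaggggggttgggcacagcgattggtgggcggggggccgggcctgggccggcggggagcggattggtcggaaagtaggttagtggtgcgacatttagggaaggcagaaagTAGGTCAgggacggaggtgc

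The Ciart window holds 3 copies of CACGTG, the E-box bound by CLOCK and BMAL1, starting 116, 58 and 44 bases before the gene start. That element, which reads the same on both strands, stands in 7.15% of all 32851 mouse promoter windows. Cry1 has 1 copy of it at 60 bases before the start and the related AACGTG at 79 bases before. AACGTG (searched together with its reverse complement CACGTT, in 4.68% of windows) also stands in the windows of Cry2 and Nr1d1. Per3 holds the D-box TTATGTAA at 205 and 158 bases before the start. The pattern searched for it was TTANGTAA on both strands, which 2.32% of windows hold and which is bound by the output factors DBP, TEF and HLF. The second Arntl window holds TAGGTCA from base 31 of the gene on, one of the forms searched on both strands (TAGGTCA or TGGGTCA, in 6.45% of windows) for the core site bound by REV-ERB and ROR receptors. The CRE letters TGACGTCA, in 1.79% of windows, were found in none of the members' windows, and neither the 3 Clock windows nor those of Npas2 and Nr1d2 held any letters searched. A match describes letters, not a bound site.

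Arntl and Clock, the activators, had their highest means in control lungs and lay lower in all 3 treatments. Per2, Per3 and Ciart, repressors driven through E-boxes, lay the other way: in every one of the 9 treated lungs each was above both controls. Arntl lay 1.07 ± 0.34 below control in the combination (log2 difference ± SE, 2.1-fold), and Ciart, Per2 and Per3 lay 0.87 ± 0.28, 0.82 ± 0.28 and 0.93 ± 0.32 above it, or 1.83-fold, 1.76-fold and 1.9-fold. None of these differences passed limma's moderated test at a Benjamini-Hochberg adjusted p of 0.05 over 19938 genes.

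Arntl encodes BMAL1, the indispensable partner of CLOCK. Its log2 level was 8.23, 8.39 and 8.77 in combination lungs, 9.01, 8.48 and 8.90 in triptolide lungs, 9.47, 9.04 and 8.01 in aspirin lungs and 9.58 and 9.49 in control lungs. Every treated lung lay below both controls, and the 3 treated groups overlapped each other, with the lowest lung of all in the aspirin group. The difference from control was −1.07 ± 0.34 in the combination (limma adjusted p = 0.193), −0.74 ± 0.34 in triptolide (adjusted p = 1) and −0.70 ± 0.34 in aspirin (adjusted p = 1). The 95% interval for the combination reached from −1.83 to −0.32, and those for triptolide (−1.49 to 0.02) and aspirin (−1.45 to 0.06) both took in 0.

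Clock encodes the histone acetylating partner of BMAL1 and varies little over the day in many tissues. It measured 9.42, 9.98 and 10.20 in combination lungs, 10.34, 10.26 and 10.42 in triptolide lungs, 10.41, 10.39 and 9.84 in aspirin lungs and 10.59 and 10.60 in control lungs. Again all treated lungs lay below both controls, and the combination lungs lay below all triptolide lungs. The difference from control was −0.73 ± 0.22 in the combination (limma adjusted p = 0.172), −0.26 ± 0.22 in triptolide and −0.38 ± 0.22 in aspirin (adjusted p = 1 for both). Between the combination and triptolide, Clock differed by −0.48 ± 0.20 (limma adjusted p = 0.354). Without combination replicate 1, which was the lowest lung for Clock, the combination lay 0.51 below control. Without combination replicate 3 it lay 0.90 below, and the limma adjusted p was then 0.0455, against 0.0455 to 0.685 over all alternatives. With that array left out, 4.49% of all genes passed the adjusted threshold, against 0% with all arrays.

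Per2 encodes a PERIOD protein, the scaffold of the repressive complex with CRY. It measured 9.53, 9.999 and 10.20 in combination lungs, 9.53, 10.09 and 9.66 in triptolide lungs, 9.58, 10.12 and 10.63 in aspirin lungs and 9.08 and 9.11 in control lungs. Each treated group lay wholly above control and overlapped the other treated groups. The difference from control was 0.82 ± 0.28 in the combination (limma adjusted p = 0.223), 0.67 ± 0.28 in triptolide and 1.02 ± 0.28 in aspirin (adjusted p = 1 for both).

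Per3, a PERIOD family member largely dispensable for rhythm in mice, showed the same order. Its levels were 9.33, 9.98 and 9.61 in combination lungs, 9.13, 9.89 and 9.38 in triptolide lungs, 9.27, 9.40 and 10.36 in aspirin lungs and 8.74 and 8.68 in control lungs. The lowest treated lung, a triptolide one, still lay above both controls. The difference from control was 0.93 ± 0.32 in the combination (limma adjusted p = 0.218), 0.75 ± 0.32 in triptolide and 0.96 ± 0.32 in aspirin (adjusted p = 1 for both).

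Ciart encodes CHRONO, a repressor that binds BMAL1 directly. It measured 8.72, 9.21 and 9.37 in combination lungs, 8.61, 9.56 and 8.90 in triptolide lungs, 9.13, 9.002 and 9.63 in aspirin lungs and 8.27 and 8.20 in control lungs. All 9 treated lungs were above the controls. The difference from control was 0.87 ± 0.28 in the combination (limma adjusted p = 0.193), 0.79 ± 0.28 in triptolide and 1.02 ± 0.28 in aspirin (adjusted p = 1 for both). Its promoter is the one printed above with 3 E-boxes.

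The CRY genes encode the proteins that block CLOCK and BMAL1 most strongly. Cry1 measured 8.60, 8.80 and 8.67 in combination lungs, 8.48, 8.63 and 8.50 in triptolide lungs, 8.92, 9.05 and 9.13 in aspirin lungs and 8.65 and 8.81 in control lungs. The 3 aspirin lungs lay above every other lung, and all 3 triptolide lungs lay below both controls. Cry1 was thus the repressor that stood lower than control in triptolide, by −0.20 ± 0.10 (limma adjusted p = 1), and higher in aspirin, by 0.30 ± 0.10 (adjusted p = 1). Its difference between aspirin and triptolide was 0.50 ± 0.09, the smallest unadjusted limma p of any member in any comparison (0.00024) with an adjusted p of 0.96. In the combination Cry1 differed from aspirin by −0.35 ± 0.09 (limma adjusted p = 0.183) and from control by −0.05 ± 0.10.

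Cry2 differed less. It measured 9.69, 10.03 and 10.33 in combination lungs, 10.11, 10.29 and 10.05 in triptolide lungs, 10.01, 10.27 and 10.42 in aspirin lungs and 9.86 and 9.90 in control lungs. Triptolide and aspirin lungs lay above both controls, and 1 combination lung lay below them. The differences from control were 0.14 ± 0.17, 0.27 ± 0.17 and 0.36 ± 0.17 in the combination, triptolide and aspirin groups.

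The REV-ERB genes encode the haem-binding receptors that repress Arntl. Nr1d1 measured 11.74, 12.26 and 12.59 in combination lungs, 12.34, 12.60 and 12.66 in triptolide lungs, 11.59, 11.59 and 12.40 in aspirin lungs and 12.06 and 11.84 in control lungs. Triptolide lungs alone lay wholly above control (0.59 ± 0.27), while 2 aspirin lungs were the lowest of the series (−0.09 ± 0.27). Between aspirin and triptolide, Nr1d1 differed by −0.68 ± 0.24 (limma adjusted p = 0.96). Nr1d2 measured 10.23, 10.80 and 10.64 in combination lungs, 10.39, 10.81 and 10.62 in triptolide lungs, 9.98, 10.27 and 11.03 in aspirin lungs and 10.05 and 9.98 in control lungs. Its combination and triptolide lungs lay above both controls, at 0.54 ± 0.27 and 0.59 ± 0.27, and its aspirin lungs overlapped them (0.41 ± 0.27).

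**Figure D1:**
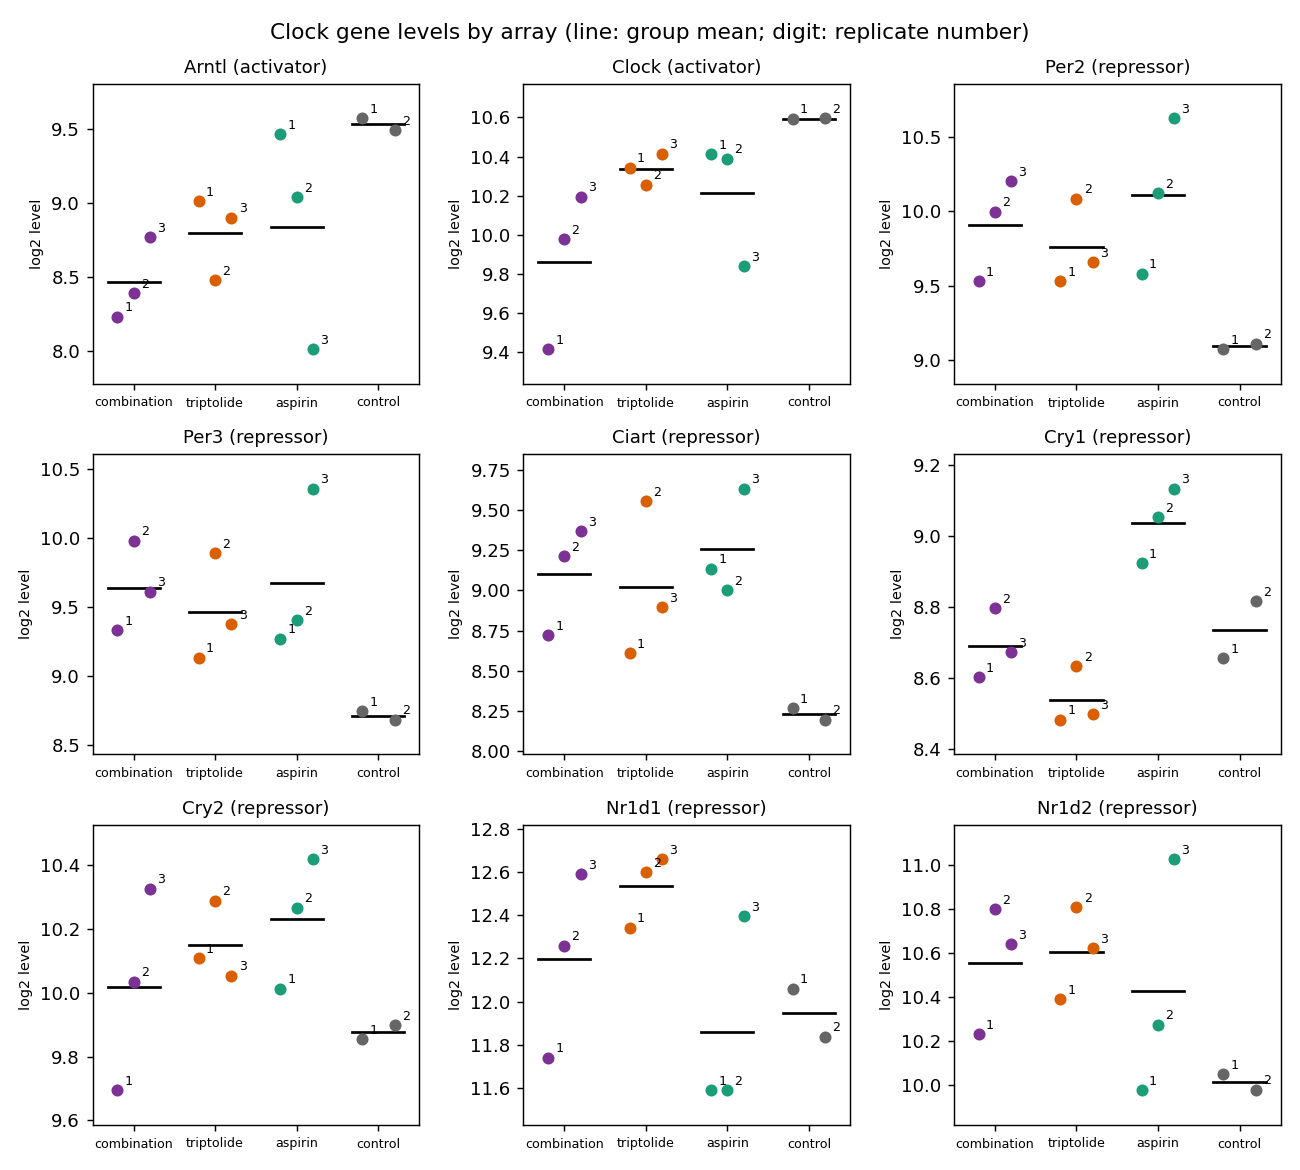
Log2 level of each of the 9 measured clock genes in every lung, 1 panel a gene, with the combination, triptolide, aspirin and control groups from left to right; points are arrays, digits replicate numbers and lines group means. Arntl and Clock have their highest means in the controls, and Per2, Per3 and Ciart have all 9 treated lungs above both controls.

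Ordered by group mean, few neighbouring groups were separate. For Arntl the order was control, aspirin, triptolide and combination, and the neighbours without overlap were aspirin and control (aspirin lower, with means of 8.84 ± 0.75 and 9.54 ± 0.06, SD, n = 3 and n = 2). For Per2, Per3 and Ciart the order was aspirin, combination, triptolide and control, and triptolide against control was the separate pair, with Per2 means of 9.76 ± 0.29 and 9.09 ± 0.03. The 3 treated groups overlapped in each of these genes. For Clock the separate neighbours were triptolide and control, and for Cry1 aspirin and control. Cry2, Nr1d1 and Nr1d2 had no neighbouring groups apart.

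**Figure D2:**
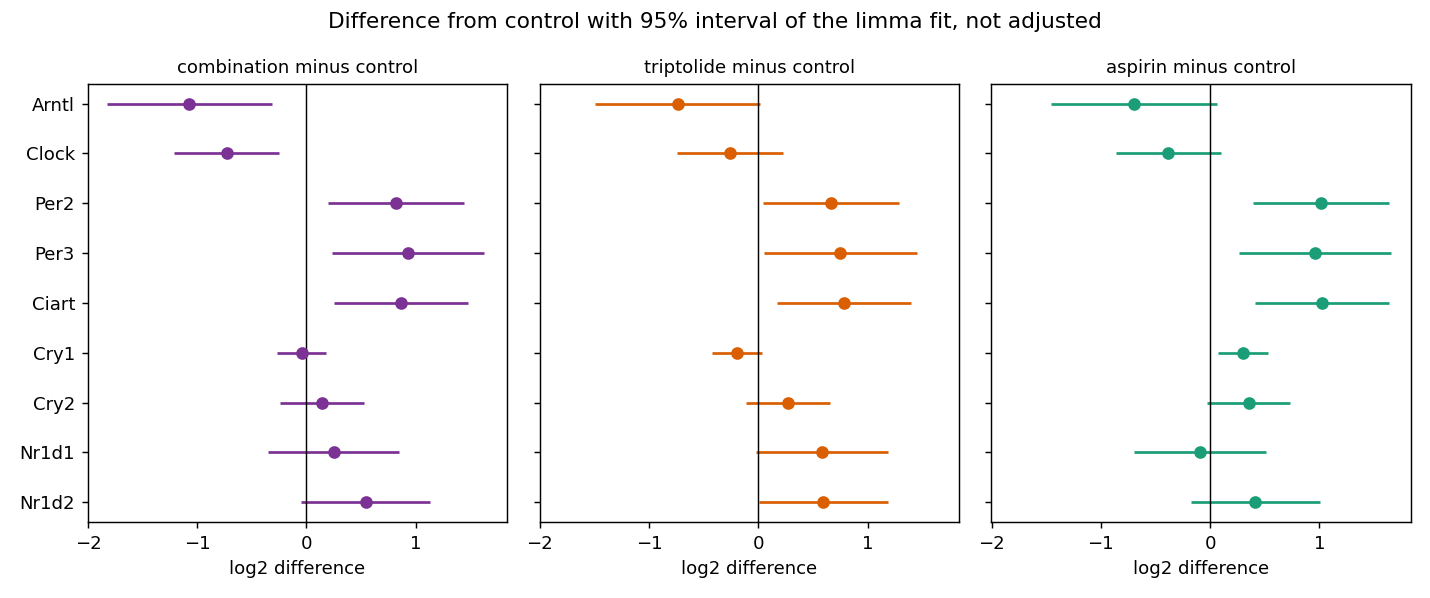
Log2 difference from control of each clock gene in the combination, triptolide and aspirin groups, with 95% intervals from limma. Intervals for Per2, Per3 and Ciart lie above 0 in all 3 groups, and those for Arntl and Clock lie below 0 in the combination and reach past 0 in triptolide and aspirin.

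Counted by the test, 0 of 9 members passed limma's adjusted threshold in the combination against control, where 0% of all genes did. Before adjustment, 5 of 9 had p under 0.05, where 14% of all genes did. Of these, 3 were higher in the combination (Per2, Per3 and Ciart, beside 3.41% of all genes) and 2 lower (Arntl and Clock, beside 10.6%). In 6 of 9 members the combination and control lungs did not overlap, against 34.8% of all genes, with 4 members higher (14.2% of all genes) and 2 lower (20.5%). Leaving out either control replicate made both the count of 5 and the 14% smaller. The median absolute difference of the 9 members was 0.73, beside 0.12 over all genes.

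The triptolide and aspirin comparisons use the same 2 controls and are not independent of this one. For triptolide against control, 0 of 9 members passed the adjusted threshold, as did 0% of all genes. Before adjustment 4 did (2.81% of all genes), all of them repressors that were higher in triptolide, namely Per2, Per3, Ciart and Nr1d2, where 1.16% of all genes were higher and 1.66% lower. Both the count of 4 and the share of all genes were smaller without either control replicate. The 4 became 1 without triptolide replicate 2 (2.3% of all genes) or 3 (3.04%) and 6 without aspirin replicate 3 (2.27%). Once the Y-linked level entered the fit the count was 0 (3.13%). All 9 members had triptolide lungs apart from control lungs, against 23.2% of all genes, with 6 members higher (9.92% of all genes) and 3 lower (13.3%). The median absolute difference was 0.59, beside 0.08 over all genes.

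For aspirin against control, 0 of 9 members passed after adjustment (0% of all genes) and 4 before it (3.05% of all genes), namely Cry1, Per2, Per3 and Ciart, all higher in aspirin, where 1.35% of all genes were higher and 1.71% lower. The 4 became 7 without aspirin replicate 1 (2.77% of all genes). They became 0 once the Y-linked level entered the fit (5.15% of all genes), where Per2 lay 0.56 and Ciart 0.31 above control. Aspirin lungs were all high and controls both low in that level, so this fit cannot separate the level from aspirin. In 7 of 9 members aspirin and control lungs did not overlap, against 26% of all genes, with 5 members higher (10% of all genes) and 2 lower (16%). In the combination against control, where that level was alike, that term left Arntl at −1.04 and Ciart at 0.79. The median absolute difference was 0.41, beside 0.08 over all genes.

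The treatments were also set against each other. The combination against aspirin gave 0 of 9 after adjustment (0% of all genes) and 1 before it, Cry1, where 11.6% of all genes had p under 0.05. The 1 became 5 without aspirin replicate 3 (7.94% of all genes), 3 without combination replicate 3 (19.4%) and 2 without combination replicate 1 (9.41%). Cry1 was also the 1 member whose groups did not overlap there (15.3% of all genes). The combination against triptolide gave 0 of 9 (0% of all genes) and 1 before adjustment, Clock, beside 13.6% of all genes, and Clock was the 1 member without overlap (17.9% of all genes). The 1 became 0 without combination replicate 1 (8.73% of all genes) and without triptolide replicate 1 (17.9%) or 3 (9.05%). Aspirin against triptolide gave 0 of 9 (0% of all genes) and 2 before adjustment, Cry1 and Nr1d1, beside 3.31% of all genes, and 1 without overlap, Cry1 (9.89% of all genes). The 2 became 1 without aspirin replicate 2 (6.6% of all genes) or triptolide replicate 3 (4.06%) and 3 without aspirin replicate 3 (2.6%). For Per2 the aspirin lungs lay 0.35 above triptolide lungs, with a 95% interval of −0.21 to 0.91, so a difference of either sign lies within it. The interaction term, the combination's difference from control less the sum of the single-drug differences, was below 0 for 8 of 9 members. These were all 7 repressors and Clock (−0.09 ± 0.29), while Arntl lay above 0 (0.36 ± 0.46). The median over all genes was 0.01. Single-drug lungs were mostly high in Y-linked level and combination and control lungs low, so the term also carries that difference. The term was −0.86 ± 0.38 for Per2 and −0.94 ± 0.37 for Ciart (limma adjusted p = 0.895 for both). 0 of 9 passed it after adjustment (0% of all genes) and 2 before (3.42% of all genes). The 2 became 0 without combination replicate 1 (3.17% of all genes), triptolide replicate 2 (2.28%) or aspirin replicate 3 (2.29%). They also became 0 once the Y-linked level entered the fit (1.2%). Dropping either control replicate lowered both the count of 2 and the share of all genes. The 2 became 1 without combination replicate 2 (2.95%), triptolide replicate 3 (2.42%) or aspirin replicate 2 (2.34%). They became 3 without combination replicate 3 (8.85%) and 4 without aspirin replicate 1 (5.66%). In the F test over all groups, 0 of 9 passed after adjustment (0% of all genes) and 5 before it (9.36% of all genes), namely Cry1, Ciart, Per2, Clock and Per3. Those 5 became 3 without combination replicate 2 (6.71% of all genes) or triptolide replicate 3 (7.85%) and 8 without aspirin replicate 3 (7.16%). Their count and the share of all genes were both smaller without either control replicate.

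The arms were then set against each other lung by lung. Each arm's level is the mean of its members after each gene was centred on its mean over the 11 arrays, so 0 is the series average. The activator level (Arntl and Clock) was −0.71, −0.35 and −0.05 in combination lungs, 0.14, −0.17 and 0.12 in triptolide lungs, 0.40, 0.18 and −0.61 in aspirin lungs and 0.55 and 0.51 in control lungs. The repressor level (7 genes) was −0.25, 0.21 and 0.26 in combination lungs, −0.14, 0.32 and 0.02 in triptolide lungs, −0.16, 0.02 and 0.57 in aspirin lungs and −0.41 and −0.44 in control lungs. Both controls held the highest activator and the lowest repressor levels of the series.

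The difference, repressor minus activator level, put the controls at one end. It was 0.46, 0.57 and 0.31 in combination lungs, −0.28, 0.49 and −0.10 in triptolide lungs, −0.56, −0.16 and 1.18 in aspirin lungs and −0.96 and −0.95 in control lungs. The 3 combination lungs were close to each other (0.447 ± 0.127, SD, n = 3) and the aspirin lungs were far apart (0.153 ± 0.913, n = 3), with triptolide between in spread (0.036 ± 0.405, n = 3). The controls lay at −0.954 ± 0.009 (n = 2). Aspirin replicate 3 had the largest repressor minus activator level of the series, and aspirin replicate 1 the lowest of the treated lungs.

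The mean repressor minus activator level was 1.40 higher in the combination than in control, 0.99 higher in triptolide and 1.11 higher in aspirin. Leaving out triptolide replicate 1, 2 or 3 gave triptolide values of 1.15, 0.76 and 1.06. Without aspirin replicate 3 the aspirin value was 0.59. On marker lists that lung measured 0.52 for platelet markers (0.65 and 1.51 on the 2 lungs above it), 0.21 for erythroid markers (0.58 and 3.33 on the 2 above it) and −0.85 for airway secretory markers (−0.89 on the 1 lung below it). Their part in its clock levels was not tested. Its level of the clock output factors Dbp, Tef and Hlf was the highest of the series, at 0.87.

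**Figure D3:**
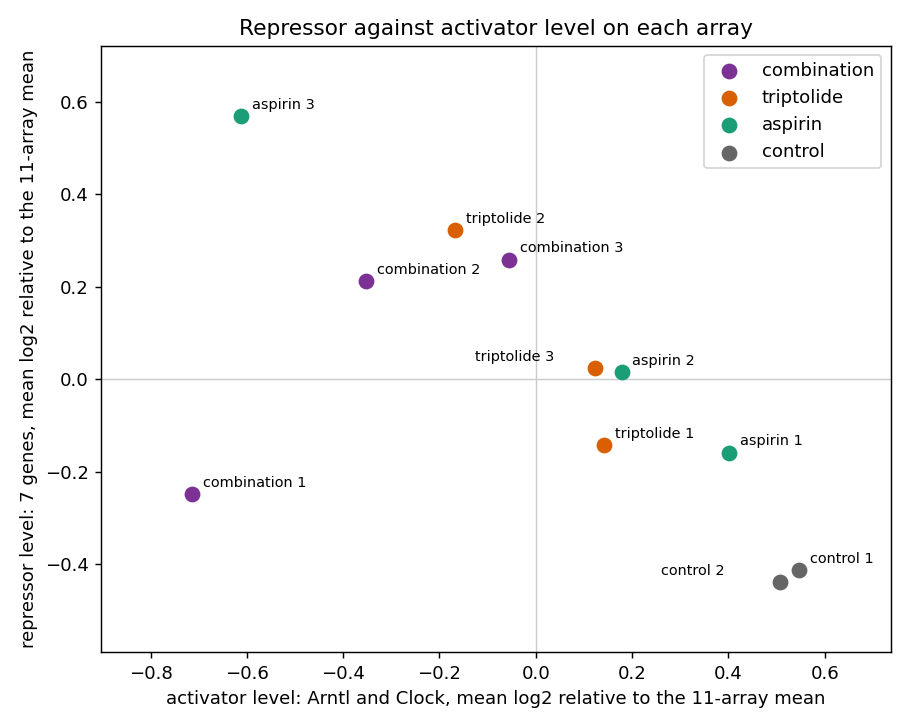
Repressor level against activator level, both in log2 units centred over the 11 arrays, 1 point a lung and 1 colour a group. The controls lie at the lower right, aspirin replicate 3 at the upper left, and combination replicate 1 below the band formed by the other lungs.

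Across the 11 lungs the arms ran opposite, with Pearson r = −0.619 and Spearman rho = −0.627 as a description. Combination replicate 1, low in both arms, lay off the line, and without it r was −0.949 and rho −0.939. Without aspirin replicate 3 it was −0.476, and without both −0.92. Deviations from the group means gave r = −0.453, and r = −0.915 without combination replicate 1. Without aspirin replicate 3 those deviations gave r = 0.252, so the sign within groups rests on which of these lungs is kept. Lungs of a group share a treatment, and the groups set part of the relation.

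Gene by gene, 14 pairs of 1 activator and 1 repressor were tested over the 11 lungs by permutation (100000 draws, two-sided), with Benjamini-Hochberg adjustment over the 14. Draws shuffled all 11 lungs regardless of group, so a difference between groups can by itself give a small p. In 13 pairs r was negative, the exception being Clock with Cry2 (r = 0.075). Arntl with Per3 had r = −0.851 (permutation p = 0.00097, adjusted p = 0.0136) and rho = −0.8 (adjusted permutation p = 0.0589). Arntl with Nr1d2 had r = −0.811 (permutation p = 0.00355, adjusted p = 0.0248) and rho = −0.764 (adjusted p = 0.0589). These were the 2 pairs past 0.05 on r, and no pair passed on rho. With the 2 lungs of most extreme Arntl left out, aspirin replicate 3 and control replicate 1, r was −0.723 for Per3 and −0.692 for Nr1d2. In deviations from the group means r was −0.796 and −0.756. Without combination replicate 1, 10 of the 14 pairs passed and all 14 were negative. Clock with Per3 then had r = −0.943, against r = −0.567 over all 11 lungs.

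Members varied within groups more than most genes. The within-group SD of Arntl was larger than that of 97.4% of all genes, and those of Per3 (96.8%), Per2 (95.6%), Ciart (95.5%), Nr1d1 (95.3%) and Nr1d2 (95.1%) were close behind. Clock stood at 91.2%, Cry2 at 80.6% and Cry1 at 20.7%, so Cry1 was the steadiest member within its groups. Over the 11 lungs Per3 spanned 1.67 log2 units (3.19-fold), Arntl 1.56 (2.96-fold), Per2 1.55 and Ciart 1.43, against 0.65 for Cry1.

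The output factors, which the core drives through E-boxes and which pass the rhythm on through D-boxes, followed the repressors. Dbp measured 9.61, 10.21 and 9.94 in combination lungs, 9.44, 10.42 and 9.88 in triptolide lungs, 9.01, 9.25 and 10.77 in aspirin lungs and 8.94 and 8.80 in control lungs. All 9 treated lungs lay above both controls, and aspirin replicate 3 was highest, as it was for Per2, Per3, Ciart and Nr1d2. Dbp lay 1.05 ± 0.45 above control in the combination, 1.05 ± 0.45 in triptolide and 0.81 ± 0.45 in aspirin, and none passed limma's adjusted threshold. Of the output factors Dbp, Tef and Hlf, 3 of 3 were above control in each comparison and 0 of 3 passed, with medians of 0.43, 0.48 and 0.71 in the combination, triptolide and aspirin groups beside medians of 0.012, −0.015 and −0.005 over all genes.

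Other clock transcription factors split. Per1, the PERIOD gene that answers fastest to outside signals, measured 10.40, 10.22 and 10.82 in combination lungs, 10.67, 10.72 and 10.58 in triptolide lungs, 9.58, 10.76 and 10.45 in aspirin lungs and 9.69 and 9.86 in control lungs. Combination and triptolide lungs lay above both controls (0.70 ± 0.28 and 0.88 ± 0.28), and 1 aspirin lung lay below them (0.49 ± 0.28). Of the 8 genes in this list 0 passed in any comparison, and 5, 6 and 6 lay above control in the combination, triptolide and aspirin groups. Bhlhe41, an E-box repressor, differed by 0.70 ± 0.36 in the combination. Rorb, a receptor of the ROR family, differed by 0.35 ± 0.13 in aspirin.

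Of 21 kinases, ubiquitin ligases and cofactors of the clock proteins, 0 passed, and 7, 10 and 8 lay above control in the combination, triptolide and aspirin groups. Usp2, a deubiquitinase under clock control, differed by 0.59 ± 0.19 in the combination and 0.71 ± 0.19 in aspirin. Csnk1e, a casein kinase that marks PER for breakdown, differed by −0.41 ± 0.15, and Fbxw11, a ligase subunit that recognises it, by −0.41 ± 0.14 in the combination. Of 13 further clock output genes 0 passed, with 9, 11 and 12 above control. Wee1, a cell cycle kinase driven through E-boxes, differed by 0.67 ± 0.26 in the combination.

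The genes whose level most resembled the repressor minus activator level over the 11 lungs were taken from both ends of Pearson's r. That level contains the members themselves, so the members were left out of the ranking, as were predicted genes, small RNAs and chemosensory receptors. Slc1a5, a glutamine transporter, came first with r = 0.953 and measured 10.84, 10.88 and 10.79 in combination lungs, 10.59, 10.77 and 10.70 in triptolide lungs, 10.51, 10.79 and 10.98 in aspirin lungs and 10.41 and 10.33 in control lungs. Dbp followed with r = 0.933, then Stk35 (0.915), Slc46a3 (0.887), Trmt13 (0.857), Lonrf1 (0.841), Vps13a (0.838) and Hlf (0.83). At the other end Fam124b had r = −0.958 and measured 7.60, 7.81 and 8.02 in combination lungs, 8.38, 8.10 and 8.50 in triptolide lungs, 8.76, 8.52 and 7.37 in aspirin lungs and 8.90 and 8.86 in control lungs. Gpx7 (−0.938), the vasodilator peptide gene Adm (−0.93), Spon2 (−0.927), Ccnjl (−0.903), Dtx4 (−0.897), Tlcd5 (−0.887) and Leo1 (−0.864) followed. All are correlations over 11 arrays that share groups, given with no test.

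**Figure D4:**
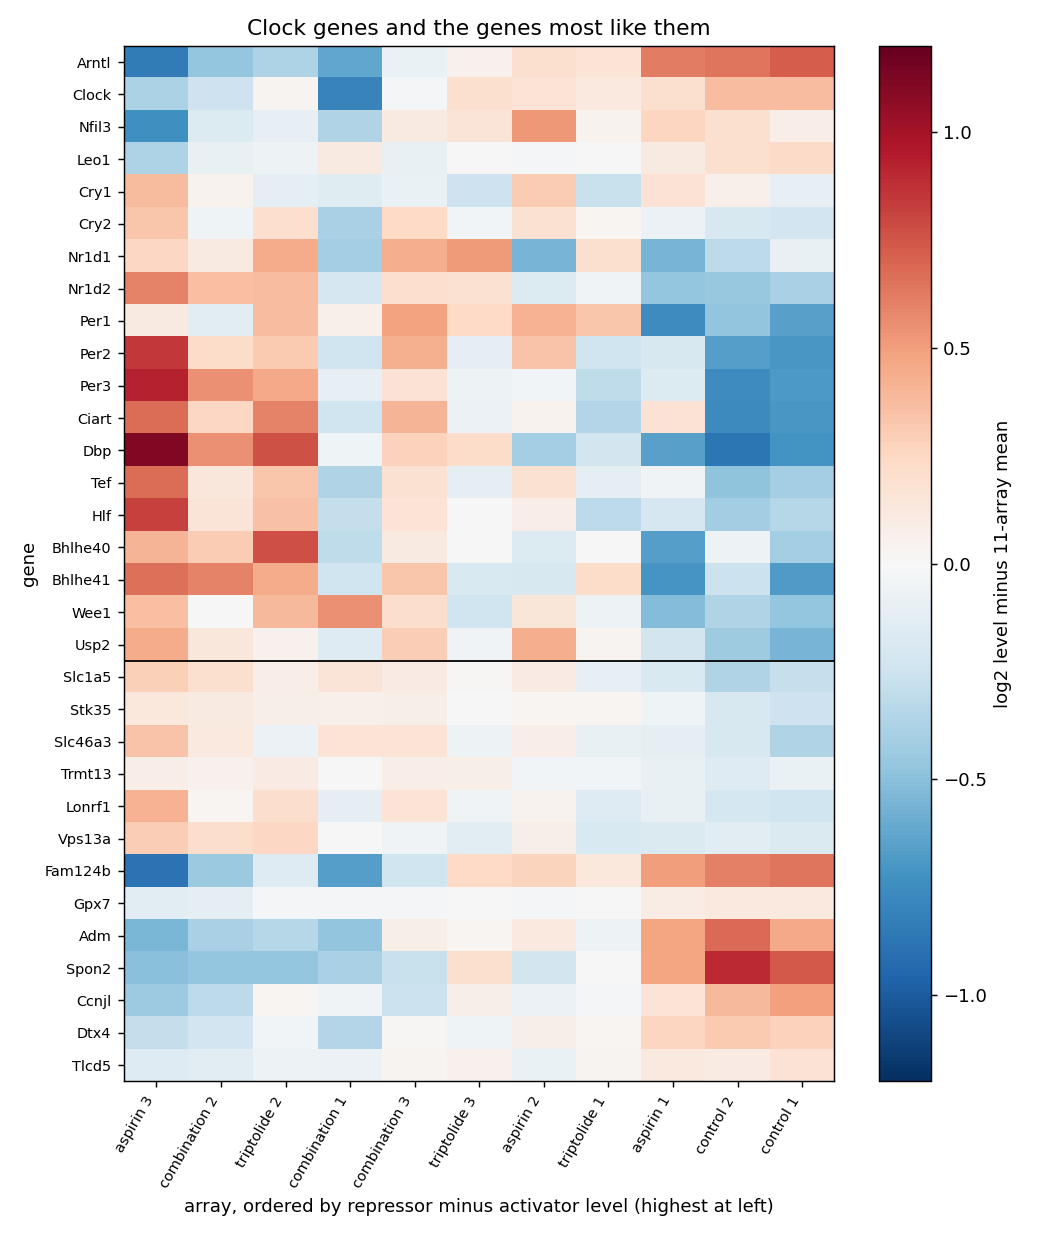
Log2 level, minus the gene's mean over 11 arrays, of the measured clock genes and other clock pathway genes (above the line) and of genes with the most similar or most opposite pattern (below it); columns are lungs ordered by repressor minus activator level, highest at the left. Aspirin replicate 3 stands at the left with Arntl low and Per2, Per3 and Dbp high, and both controls stand at the right with the colours turned.

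Marker levels of lung cell types also differed between the groups. The endothelial marker level (12 genes) was −0.69 to −0.22 in combination lungs, −0.15 to 0.19 in triptolide lungs, 0.16 to 0.26 in aspirin lungs and 0.33 to 0.42 in control lungs. In the combination 12 of 12 endothelial markers lay below control. Alveolar type 1 markers (10 genes) ranged from −0.82 to −0.09 in the combination and from 0.18 to 0.21 in control, and B and plasma cell markers (11 genes) from 0.29 to 0.81 in the combination and from −0.36 to −0.32 in control. Platelet markers (9 genes) ranged from −0.62 to 0.65 in the combination, −0.47 to −0.10 in triptolide, 0.12 to 1.51 in aspirin and −0.48 to −0.45 in control, with 9 of 9 above control in aspirin. Their part in the clock gene differences was not tested.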

How the data were processed

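Total RNA of whole mouse lung (100 ng) was labelled and hybridised to 11 Affymetrix arrays, per the labels' protocols. The deposited table holds log2 values that the authors normalized, and RMA and Partek are named in the submitters' processing notes, with versions not given in the sources used here. Normalization across arrays can narrow real differences in total RNA. Of 35556 table rows, 21789 carried 1 symbol in the platform annotation, 1621 several and 12146 none; the row of highest mean stood for each of 19938 genes. Array medians were 8.135 to 8.254, and the number of arrays limits precision.

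Limma 3.58.1 (R 4.3.3) was fitted to all genes and 11 arrays with 4 groups, 7 contrasts and an F test, with Benjamini-Hochberg adjustment over all genes; it was tested on simulated data. Correlations were planned for 21 pairs, of which 14 could be run without Npas2, and used numpy 2.4.6. Members and gene lists were chosen with earlier results of these data known. Genes named beside the members were, in each list, the 3 of smallest p in a comparison, and the 8 at each end of the likeness ranking. Samples were not paired by replicate number in the main fit. Deviations of same-numbered arrays correlated at −0.139 to 0.329 (median 0.084), with 6 of 15 pairs over 0.1. Those of different-numbered arrays correlated at −0.382 to 0.337 (median −0.0675), with 4 of 30 pairs over 0.1. These values do not settle whether the numbers link samples. Alternatives were other scalings, filters, row rules, moderation, array weights, a Y-linked covariate and leaving out each array. A further row of Ciart served only as an alternative. Npas2 was not analysed here.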

Additional observations from a re-analysis of the deposited data

Results flagged for a closer look

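Ciart has a further row in the table that the comparisons above did not use. It was picked out because every treated lung lay above both controls in it, as in the row used. It measured 8.32, 8.34 and 8.64 in combination lungs, 8.05, 8.87 and 8.37 in triptolide lungs, 8.23, 8.46 and 8.88 in aspirin lungs and 7.73 and 7.96 in control lungs. Every treated lung lay above both controls, as in the row used, and the difference from control was 0.59 in the combination, 0.58 in triptolide and 0.68 in aspirin.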

How the results depend on the processing

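The 33 member differences checked were all those against control and, of the other comparisons, only those with unadjusted limma p under 0.05. Refitted under the alternatives, which reuse the same arrays, they gave 735 values, of which 727 kept their sign. For combination minus control, Cry1 turned to 0.01 with gene-by-gene array weights. On leaving out 1 array it ran from −0.13 to 0.04 (0.04 without control replicate 2), and Cry2 ran from −0.01 (without combination replicate 3) to 0.30. Aspirin minus control turned for Nr1d1 to 0.33 with those weights and ran from −0.36 to 0.04 on leaving out 1 array (0.04 without aspirin replicate 1 or 2, and 0.02 without control replicate 1). The Ciart interaction turned to 0.25 with the Y-linked level as covariate. The cause was not tested. With gene-by-gene array weights, added after seeing the data, members past the adjusted limma threshold numbered 4 in combination minus control (Ciart, Clock, Per2 and Per3; 8.55% of all genes passed), 8 in aspirin minus control (2.68%), 1 in combination minus aspirin (4.38%), 2 in aspirin minus triptolide (0.687%) and 7 in the F test (6.44%). Aspirin replicate 3 then weighed 5.99 and combination replicate 1 weighed 0.149. Weights estimated by REML stopped before converging and were not used. Leaving out 1 treated array gave 0 members passing in every comparison, with 1 exception. That was Clock in combination minus control without combination replicate 3, where 896 of all genes (4.49%) passed. Over all alternatives 0 to 1704 of all genes passed in combination minus control, the 1704 with the weights, against 0 above. Leaving out a control leaves 1, assumed to vary like the other groups.

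The weights raised the share of all genes before adjustment too, to 11.7% for triptolide minus control, 20.4% for aspirin minus control, 22.9% for combination minus aspirin, 20.4% for combination minus triptolide, 18.2% for aspirin minus triptolide, 14.2% for the interaction and 29.7% in the F test. Counts of members before adjustment were, for triptolide minus control, 7 with the weights and 0 with the Y-linked covariate (3.13% of all genes). They were 7 without combination replicate 1 and aspirin replicate 3 together (4.25%) and 8 with only both groups in the fit (5.23%). For aspirin minus control they were 8 with the weights and 0 with the covariate (5.15% of all genes), which is not separable from aspirin. For combination minus aspirin they were 3 with the weights, 0 with the covariate (1.76% of all genes) and 5 without both arrays (7.15%). For combination minus triptolide they were 2 with the weights and 0 with the covariate (0.456% of all genes), the replicate block (17.9%) or quantile normalization (10.4%). For the interaction they were 6 with the weights, 0 with the covariate (1.2% of all genes) and 0 without both arrays (2.36%). There they were 1 with centred arrays (3.51%), quantile normalization (4.14%) or the lower Ciart row (3.41%). For aspirin minus triptolide they were 7 with the weights and 4 without both arrays (4.81% of all genes). In the F test they were 9 with the weights, 1 with the covariate (8.05%) and 8 without both arrays (7.71%). Leaving out 1 array gave 3 to 6 for the combination, 0 to 6 for triptolide, 3 to 7 for aspirin, 1 to 5 for combination minus aspirin, 0 to 1 for combination minus triptolide, 0 to 4 for the interaction, 1 to 3 for aspirin minus triptolide and 1 to 8 for the F test. The repressor minus activator difference then ran from 1.34 to 1.47 in the combination, 0.76 to 1.15 in triptolide and 0.59 to 1.46 in aspirin, all minus control. It ran from −0.06 to 0.81 for combination minus aspirin, 0.25 to 0.64 for combination minus triptolide and −0.40 to 0.47 for aspirin minus triptolide. Pairs passing numbered 3 after quantile normalization and 10 without combination replicate 1. With the replicate number as a block, 0 members passed in any comparison. Before limma's adjustment 5 members had p under 0.05 in the combination (17.2% of all genes), 3 in triptolide (3.79%) and 4 in aspirin (3.86%), all against control. The block changed no adjusted call of a member. In combination minus control 152 of all genes (0.762%) passed with the block, against 0 in the main fit.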

Other observations

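Of genes that glucocorticoids induce, a pathway that also reaches Per1, more lay above control than below it in each treatment. Of 11 such genes 0 passed limma's adjusted threshold in any comparison. In the combination, triptolide and aspirin groups 7, 11 and 10 lay above control. The list medians were 0.64, 0.52 and 0.38, beside 0.012, −0.015 and −0.005 over all genes. The 4 below control in the combination were Dusp1 (mean 12.14 against 12.25), Errfi1 (11.46 against 11.61), Klf9 (11.13 against 11.24) and Sgk1 (9.73 against 9.90). Zbtb16, a zinc finger factor, measured 10.74, 11.04 and 11.80 in combination lungs, 11.43, 10.63 and 10.07 in triptolide lungs, 10.27, 11.73 and 10.83 in aspirin lungs and 9.96 and 9.57 in control lungs. Every treated lung lay above both controls. Mt2, a metal-binding metallothionein, lay 1.02 ± 0.31 above control in the combination, 0.89 ± 0.31 in triptolide and 0.67 ± 0.31 in aspirin. Tsc22d3, the glucocorticoid-induced leucine zipper, lay 0.83 ± 0.30 above control in triptolide. Fkbp5, a chaperone of the glucocorticoid receptor, differed by 0.90 ± 0.43 in aspirin, where 1 lung at 10.14 stood above the other aspirin lungs at 8.64 and 8.85.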
